A study of Mus musculus with 12 samples.

Results

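Kidney CD4 T cells of WT mice and of mice labelled CD4 Keap1 KO were compared for how their gene expression responded to renal ischemia-reperfusion injury (IRI). The quantity described is the interaction: the KO response (IRI minus control) minus the WT response, on the log2(FPKM + 1) scale. FPKM is a count of fragments scaled by the length of the transcript and by the mapped fragments of the library. An interaction above 0 means that a gene rose more, or fell less, in KO than in WT. The genes described are the 7919 protein-coding genes that averaged 5 FPKM or more over the 12 libraries, of 52632 genes in the deposited table and 19288 genes tested. That choice used the mean level only, but 348 of the 7919 genes would be under 5 FPKM without 1 of the 4 groups, 227 of them without KO control, so their differences are in part set by the choice. Among the genes named below these are Cd36, Cd79a, Cpne7, Gm17655, Ifit1, Ikzf4, Jchain, Mmp9, Rapgef3 and Sdf2l1. The gene just inside the limit was Cyb5d2 at a mean of 5.002 FPKM (interaction -0.79 ± 0.47, SE), and the gene just outside was Pdlim7 at 4.998 FPKM (interaction -0.46 ± 0.47).

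There were 4 groups of 3 libraries each. WT control and WT IRI came from C57BL6/J mice bought from a supplier, and KO control and KO IRI came from CD4 Keap1 KO mice bred in house on a C57BL6/J background, so genotype and source of the mice cannot be told apart. In the IRI groups both renal pedicles were clamped for 30 min and the kidneys were taken 24 h later. Control mice were a separate group of each genotype. The labels used here give neither a sham operation for them, nor the animals' age, nor the driver of the Keap1 deletion. CD4 T cells were flow sorted after a Percoll gradient, and total RNA was sequenced. The labels do not tie the 3 libraries of a group to separate animals, and p-values then cover only the spread from library to library, which may be technical.

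Keap1 is the adaptor that hands the transcription factor NRF2 (encoded by Nfe2l2) to a ubiquitin ligase, so that NRF2 is normally degraded. Without Keap1, NRF2 accumulates and drives genes of glutathione and thioredoxin metabolism, NADPH supply, heme breakdown and iron storage. Renal ischemia followed by reperfusion causes oxidative stress and tubular death, and CD4 T cells of the kidney take part in that injury.

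Keap1 itself was measured at 8.50, 9.00 and 9.87 FPKM in WT controls and 8.80, 6.31 and 6.03 after IRI, with 6.61, 5.75 and 7.77 in KO controls and 6.28, 5.95 and 4.59 after IRI. As deposited, KO controls were below WT controls, the IRI libraries overlapped, and the interaction was 0.12 ± 0.26. Divided by the median-ratio factors given below, every KO IRI library was below every WT IRI library. The labels do not say which exons were deleted, so these values do not check the deletion. The NRF2 target Nqo1, a quinone reductase under the limit of 5 FPKM, was at 0.0991, 0.169 and 0 FPKM in WT controls and 0.407, 0.543 and 0 after IRI, with 6.85, 4.87 and 7.75 in KO controls and 6.90, 3.38 and 4.80 after IRI, so the genotypes did not overlap in either condition. Cd4, the sorted co-receptor, was at 85.7, 99.3 and 101 FPKM in WT controls and 70.7, 60.6 and 49.7 after IRI, with 382, 183 and 276 in KO controls and 237, 149 and 236 after IRI, and was higher in every KO library than in any WT library. Summed FPKM per library ranged from 739969 to 2089550.0, with 17.7% to 63.1% of the sum in the top 3 genes. Median-ratio factors ranged from 0.755 in WT IRI 3 to 1.34 in KO control 1. Rescaling by them lowered the median KO-minus-WT difference of the 7919 genes from 0.43 to 0.11 in controls and from 0.45 to 0.17 after IRI. The median interaction was 0.03 as deposited and 0.07 rescaled, so interactions are given below as deposited. Statements that WT and KO libraries overlap or lie apart also use values as deposited. They compare genotypes within a condition, so the median KO-minus-WT differences above are part of them. Some of them change when libraries are divided by these factors, as stated for the genes concerned.

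Most genes that responded to IRI moved in the same direction in WT and KO. Averaged over genotype, 350 of the 7919 genes rose and 856 fell after IRI at an adjusted limma p under 0.05 (1206 genes, 15.2%), where 3.01% of all 19288 genes tested rose and 6.03% fell. The WT and KO responses of those 1206 genes had opposite signs in 1 case, a count that the choice by their mean favours. Across genes, which are not independent replicates, Pearson's r between the WT and KO responses was 0.741 over the 7919 genes. In WT alone 149 rose and 393 fell (background 1.19% and 2.59%). In KO alone 51 rose and 66 fell (background 0.327% and 0.539%). Of the 542 WT calls, 111 (20.5%) were also KO calls, and those were 94.9% of the 117 KO calls, all in the same direction. A gene called in 1 genotype only is not thereby shown to respond differently, which the interaction tests.

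No gene of the 7919 passed the interaction test in either direction. The background was 0% higher and 0.00518% lower, the latter a single small RNA outside this set. The smallest adjusted limma p of the set was 0.999. An unadjusted p under 0.05 was reached by 168 genes (2.12%, against 3.35% of all genes tested), 87 with a value above 0 and 81 below. Leaving out KO control 1 gave 2 calls, and leaving out any other single library gave 0. The precision sets what could be seen: the median SE of an interaction was 0.35, and the median 95% interval reached 0.77 to each side. For 520 of the 1206 responding genes (43.1%, against 37% of all responding genes tested) the interval stayed within 1 log2 unit, gene by gene and with no adjustment for the number of genes, which places the responses of WT and KO within 2-fold of each other. These were 166 rising and 354 falling genes.

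Where the sizes of the WT and KO responses were set side by side, the KO one was more often the smaller. This held for 917 of the 1206 responding genes (76.0%), for 72% of all 1744 responding genes tested, and for 60.2% of the 7919 genes whether they responded or not. Among the 856 falling genes it was 78.2%, with a median ratio of KO to WT response of 0.768. Among the 350 rising genes it was 70.9%, with a median ratio of 0.823. Without the genes that reach 5 FPKM through 1 group it was 76.9% of 1131. These shares count genes of the same 12 libraries and carry no test. The counts of each gene list below are to be read against them, against the 4.42% of the 7919 genes that rose and the 10.8% that fell, and against the 41.4% of falling and 47.4% of rising genes with the interval within 1 log2 unit. A pair of libraries bore on them: the share was 55.4% of 1685 responding genes without KO control 2 and 61.1% of 1186 without KO IRI 1. Over all 7919 genes it was 50.0% without KO control 2 and 52.0% without KO IRI 1, in place of 60.2%. For responding genes, rescaling left the share at 74.2%, though of 1904 responding genes 44.1% then rose, against 29.0% of 1206 as deposited. In bulk RNA, fewer cells of a type and less RNA per cell cannot be told apart.

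**Figure D1:**
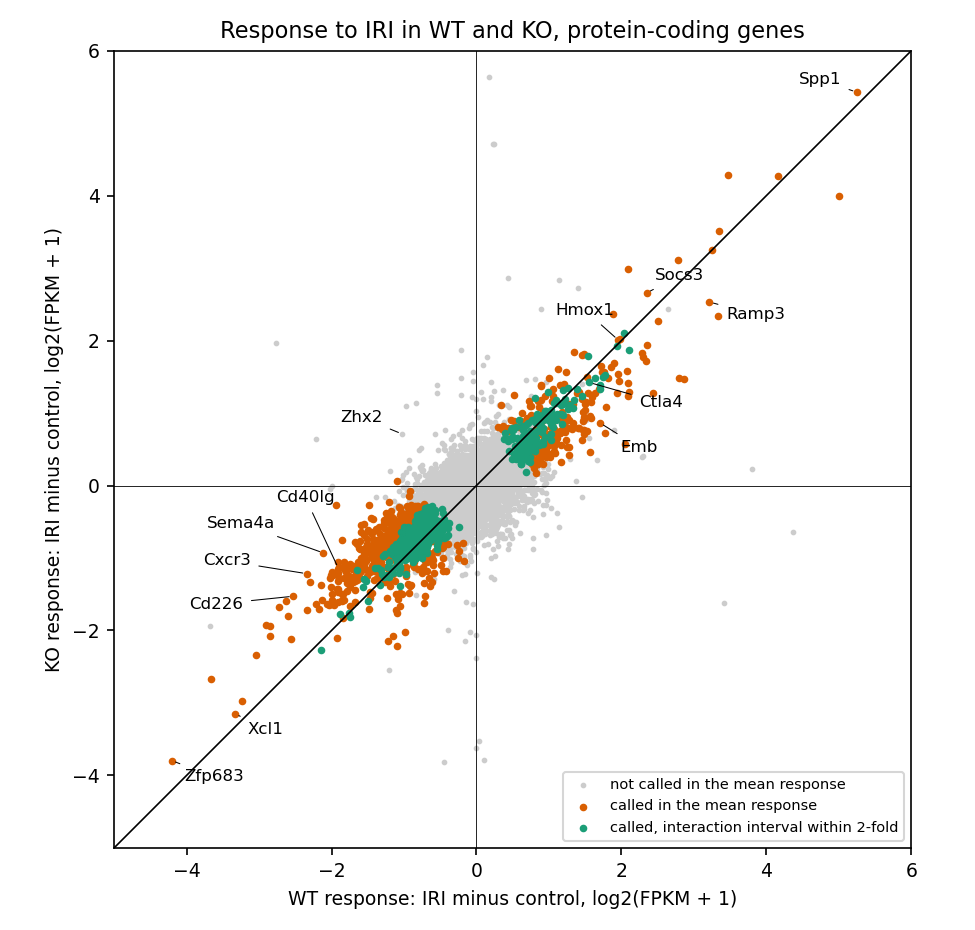
Each point is 1 of the 7919 genes, with its WT response on the x axis and its KO response on the y axis, both on the log2(FPKM + 1) scale. The line marks equal responses; the 520 genes in green had an interaction interval within 1 log2 unit, and of the 1206 coloured genes 917 had the smaller size in KO.

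Genes of the Th1, costimulatory and T cell receptor lists were among those whose falls were smaller in KO by value, though none passed the interaction test. CD40 ligand (Cd40lg, chrX:57212143-57224042 on GRCm38), through which helper T cells activate B cells and antigen-presenting cells, stood at 77.9, 89.2 and 77.8 FPKM in WT controls and 20.5, 19.96 and 22.7 after IRI, with 90.7, 86.4 and 102 in KO controls and 47.7, 39.4 and 37.9 after IRI. Controls of the genotypes overlapped, whereas every KO IRI library was above every WT IRI library. The fall was 1.90 on the log2 scale in WT and 1.15 in KO, an interaction of 0.76 ± 0.22, 95% interval 0.28 to 1.24.

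Cd226, an activating adhesion receptor that competes with TIGIT for ligands, was at 64.5, 76.5 and 73.8 FPKM in WT controls and 13.1, 8.49 and 13.8 after IRI, with 62.0, 61.6 and 74.98 in KO controls and 27.2, 17.9 and 22.4 after IRI. As deposited, Cd226 again overlapped in controls and did not overlap after IRI, with an interaction of 1.000 ± 0.30, 95% interval 0.33 to 1.67. Divided by the median-ratio factors (0.755 for WT IRI 3 and 1.05 for KO IRI 2), WT IRI 3 lay above KO IRI 2. Every KO control then lay below every WT control. Tnfsf10, which encodes the death ligand TRAIL, fell from 17.4, 19.3 and 17.6 to 6.60, 5.87 and 3.62 FPKM in WT and from 18.0, 12.9 and 17.3 to 8.99, 6.84 and 9.13 in KO (interaction 0.75 ± 0.31). The 15 costimulatory and TNF family genes measured at this level comprised 7 that fell and 3 that rose over both genotypes. Their median response was -0.85 in WT and -0.52 in KO, against -0.10 and -0.09 for all 7919 genes. Of the 10 that responded, 8 had the smaller size in KO, a share near the 76.0% of all 1206 responding genes. The median interaction of the list was 0.16 to 0.55 over all settings tried.

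Th1 genes had the lowest median response of the process lists in WT. Cxcr3, the chemokine receptor that guides Th1 cells to inflamed tissue, was at 59.3, 68.4 and 86.2 FPKM in WT controls and 16.5, 9.18 and 14.7 after IRI, with 95.5, 61.4 and 80.5 in KO controls and 37.8, 28.8 and 32.8 after IRI. Its WT and KO controls overlapped and its IRI libraries did not, with falls of 2.34 in WT and 1.22 in KO (interaction 1.12 ± 0.35, 95% interval 0.34 to 1.90). Tbx21, which encodes the Th1 master regulator T-bet, was at 31.1, 31.4 and 29.9 FPKM in WT controls and 7.36, 5.32 and 5.59 after IRI, with 29.5, 23.0 and 22.9 in KO controls and 8.15, 5.78 and 7.25 after IRI. Here the IRI libraries of the genotypes overlapped, and the interaction was 0.48 ± 0.25. The cytokine gene Tnf fell from 25.7, 25.5 and 28.4 to 7.15, 5.99 and 4.32 FPKM in WT and from 53.2, 31.4 and 34.4 to 14.0, 11.1 and 10.01 in KO, an interaction of 0.38 ± 0.33. Of the 12 Th1 genes measured 8 fell and 4 did not pass, the median response was -1.501 in WT and -0.997 in KO, and all 8 had the smaller size in KO, where 78.2% of all falling genes did. The median interaction of the list was 0.34, and 0.10 without KO control 2.

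Of the receptor components, Cd3g and Cd3e were among those that fell. Cd3g, a signalling chain of the T cell receptor complex, was at 215, 236 and 256 FPKM in WT controls and 52.8, 45.9 and 58.9 after IRI, with 343, 254 and 418 in KO controls and 151, 122 and 114 after IRI. KO IRI libraries were all above WT IRI libraries, and the lowest KO control lay within the WT control range (interaction 0.78 ± 0.30). Cd3e had a smaller fall, from 213, 209.9 and 194 to 98.8, 85.4 and 73.8 FPKM in WT and from 248, 228 and 324 to 203, 171 and 181 in KO (interaction 0.74 ± 0.27). Thy1, the pan-T surface glycoprotein, had a wider error, with an interaction of 0.91 ± 0.54. The kinase Lck, which starts receptor signalling, had one of 0.53 ± 0.36. Of the 20 genes of the receptor and its proximal signalling, 11 fell, 1 rose and 8 did not pass. All 12 that responded had the smaller size in KO, and the median response was -0.73 in WT and -0.55 in KO. The list's median interaction was 0.29, and 0.10 without KO control 2. As deposited, Sema4a, a semaphorin of immune cells, showed the pattern of Cd40lg at 76.6, 90.6 and 65.5 FPKM in WT controls and 16.3, 20.8 and 14.6 after IRI, with 81.7, 49.3 and 67.1 in KO controls and 36.8, 27.3 and 37.2 after IRI, with no overlap after IRI and an interaction of 1.18 ± 0.33, 95% interval 0.46 to 1.90. Divided by the median-ratio factors, its KO controls lay below every WT control.

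**Figure D2:**
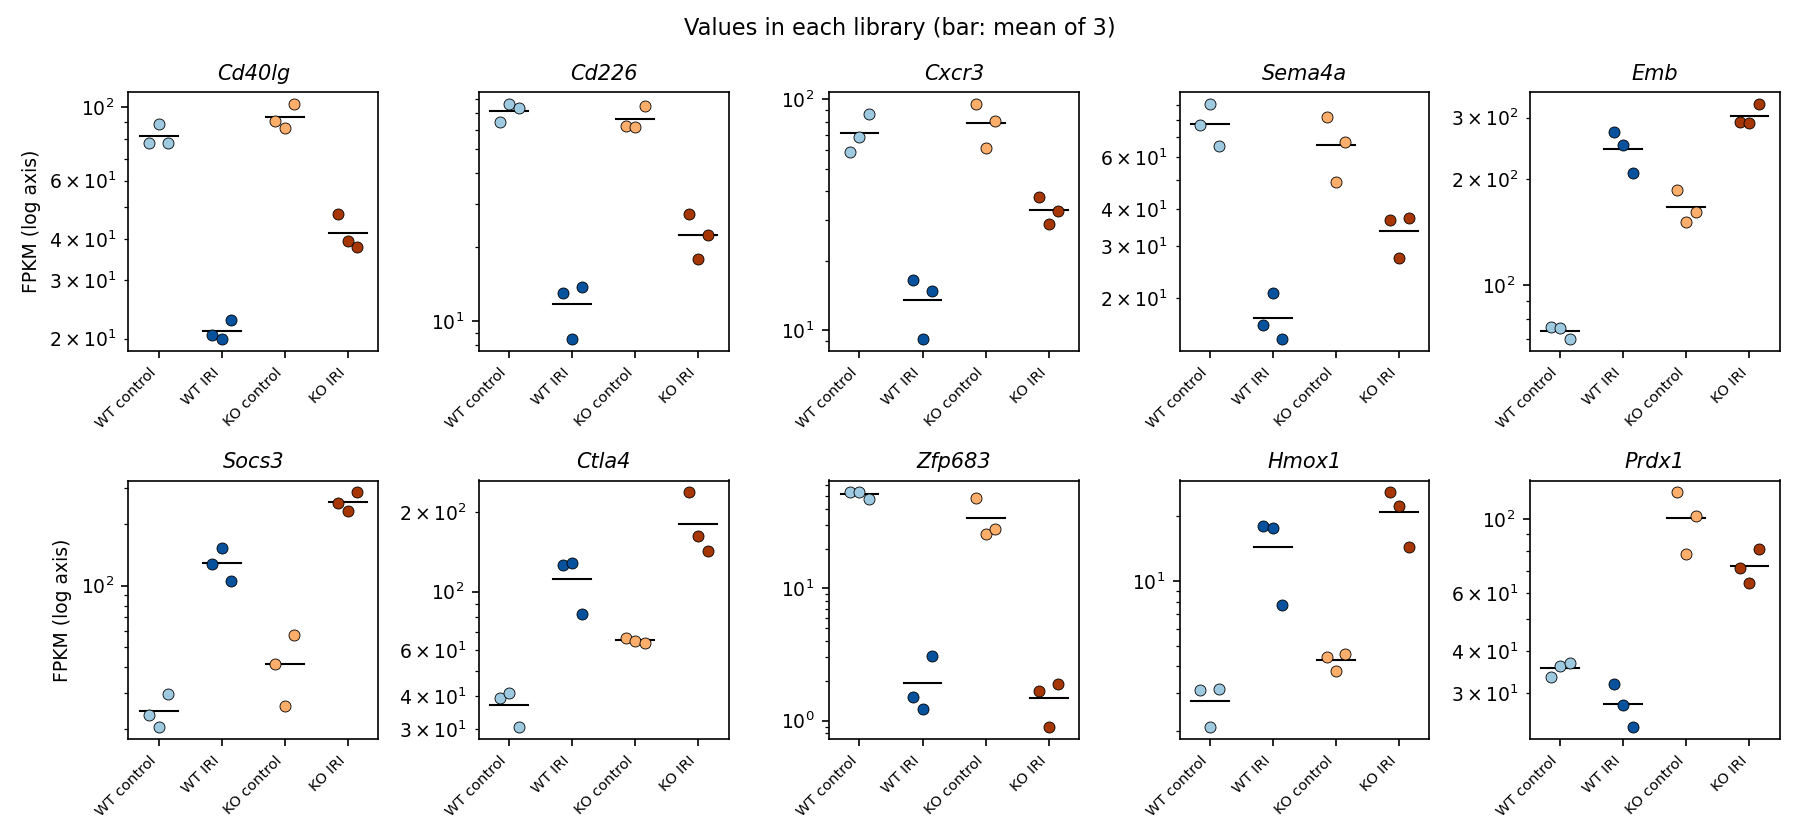
FPKM on log axes for 10 genes in each of the 12 libraries, with the mean of each group of 3 as a bar. On values as deposited, Cd40lg, Cd226, Cxcr3 and Sema4a overlap between genotypes in controls and lie apart after IRI. Divided by the median-ratio factors, Cd40lg and Cxcr3 keep that pattern, and Cd226 and Sema4a do not. Socs3, Ctla4, Zfp683 and Hmox1 respond in both genotypes, and Prdx1 is higher in every KO library.

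Several genes of tissue residency fell in both genotypes, Zfp683 and Xcl1 among them. Zfp683, which encodes the residency regulator Hobit, was at 53.3, 53.2 and 47.3 FPKM in WT controls and 1.51, 1.22 and 3.06 after IRI, with 48.5, 25.9 and 28.2 in KO controls and 1.66, 0.888 and 1.89 after IRI. IRI libraries of both genotypes overlapped at under 4 FPKM, the falls were 4.21 and 3.80, and the interaction was 0.41 ± 0.41, 95% interval -0.50 to 1.32. The chemokine gene Xcl1 fell by 3.33 in WT and by 3.15 in KO (interaction 0.18 ± 0.41). Cxcr6, a retention receptor, was at 106, 122 and 123 FPKM in WT controls and 21.0, 9.39 and 18.4 after IRI, with 122, 99.9 and 89.3 in KO controls and 19.6, 27.5 and 24.8 after IRI, with an interaction of 0.77 ± 0.38. In P2rx7, the ATP-gated channel of resident T cells, the interaction was 0.58 ± 0.39. Rgs1, a brake on chemokine receptor signalling, did not respond on average but went from 245, 182 and 166 to 202, 235 and 153 FPKM in WT and from 255, 145 and 148 to 436, 352 and 306 in KO, an interaction of 1.04 ± 0.39. Of the 12 residency genes measured 6 fell and 6 did not pass. All 6 had the smaller size in KO, and the median response was -1.09 in WT and -0.83 in KO.

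Integrins and chemokine receptors of homing comprised 12 genes, of which 5 fell, 7 did not pass, and all 5 had the smaller size in KO. Itgb1, the common chain of the VLA integrins, was at 157, 167 and 167 FPKM in WT controls and 43.4, 33.0 and 54.2 after IRI, with 176, 140.3 and 181 in KO controls and 128, 53.5 and 71.9 after IRI, with KO IRI 1 close to KO control and the other KO IRI libraries nearer to WT IRI. Its interaction was 0.87 ± 0.42. For Itgb7 and Itgb2, chains of gut-homing and leukocyte integrins, the interactions were 0.70 ± 0.40 and 0.49 ± 0.35, and the monocyte and T cell chemokine receptor Ccr2 had 0.41 ± 0.38. KO IRI 1 was the highest of the KO IRI libraries for all 4, and without it the list's median interaction was -0.05 in place of 0.21.

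Interferon-stimulated genes fell in 11 of 18 cases, with 7 not passing and a median response of -1.09 in WT and -0.61 in KO. Zbp1, a sensor of nucleic acids, was at 33.2, 35.2 and 54.5 FPKM in WT controls and 17.0, 17.5 and 16.7 after IRI, with 50.5, 36.5 and 52.1 in KO controls and 33.0, 29.3 and 28.1 after IRI. All KO IRI libraries lay above all WT IRI ones (interaction 0.59 ± 0.30), and Ifit1, an inhibitor of viral RNA translation, had an interaction of 0.69 ± 0.43. For Ifit1 the call was lost when any 1 of 5 of the 12 libraries was left out, with adjusted limma p up to 0.0636. Within the list the pattern was not uniform. Xaf1, a pro-apoptotic interferon target, fell from 13.2, 14.0 and 20.7 to 6.16, 5.77 and 6.84 FPKM in WT and from 24.4, 15.5 and 24.1 to 8.64, 7.96 and 7.80 in KO, an interaction of -0.06 ± 0.30, and Oas3, an antiviral synthetase, one of -0.08 ± 0.34. Ifi27l2a and Ifi203 had interactions of 0.32 ± 0.45 and 0.22 ± 0.28, and Oasl2 had a value of -0.59 ± 0.32 without a response that passed. Of the 11 falling genes 9 had the smaller size in KO and 4 had an interval within 1 log2 unit, shares near the 78.2% and 41.4% of all falling genes. The median interaction was 0.24, and 0.06 without KO control 2.

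Cytosolic heat shock genes had the highest median interaction of the 33 process lists, 0.47, and all 17 measured members were above 0. On average 2 fell and 15 did not pass, and the median response was -0.50 in WT and -0.10 in KO. Stip1, the co-chaperone that links HSP70 and HSP90, fell at 15.4, 21.7 and 15.8 FPKM in WT controls and 5.72, 7.12 and 7.20 after IRI, with 27.1, 14.5 and 18.6 in KO controls and 11.6, 9.76 and 11.9 after IRI, with an interaction of 0.51 ± 0.32. Hspd1, a mitochondrial chaperonin, though in the list of cytosolic genes, is the other gene that fell and had one of 0.17 ± 0.38. For Hspd1 the call was lost when any 1 of 10 of the 12 libraries was left out, with adjusted limma p up to 0.105. For Hsp90aa1, the inducible HSP90, the values were 117, 163 and 129.8 FPKM in WT controls and 109.9, 73.6 and 78.8 after IRI, with 205, 125 and 151 in KO controls and 126, 153 and 160.2 after IRI. As deposited, WT IRI was below every other library and the other groups overlapped, and the interaction was 0.54 ± 0.34. Divided by the median-ratio factors, WT IRI 1 lay above KO IRI 1. Chordc1, an HSP90 co-chaperone, had a value of 0.59 ± 0.31. The count above 0 was 14 to 17 of 17 over the 24 settings tried, and the median was 0.15 without KO control 2. Since the same libraries enter every gene, members that share a direction are not separate evidence.

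**Figure D3:**
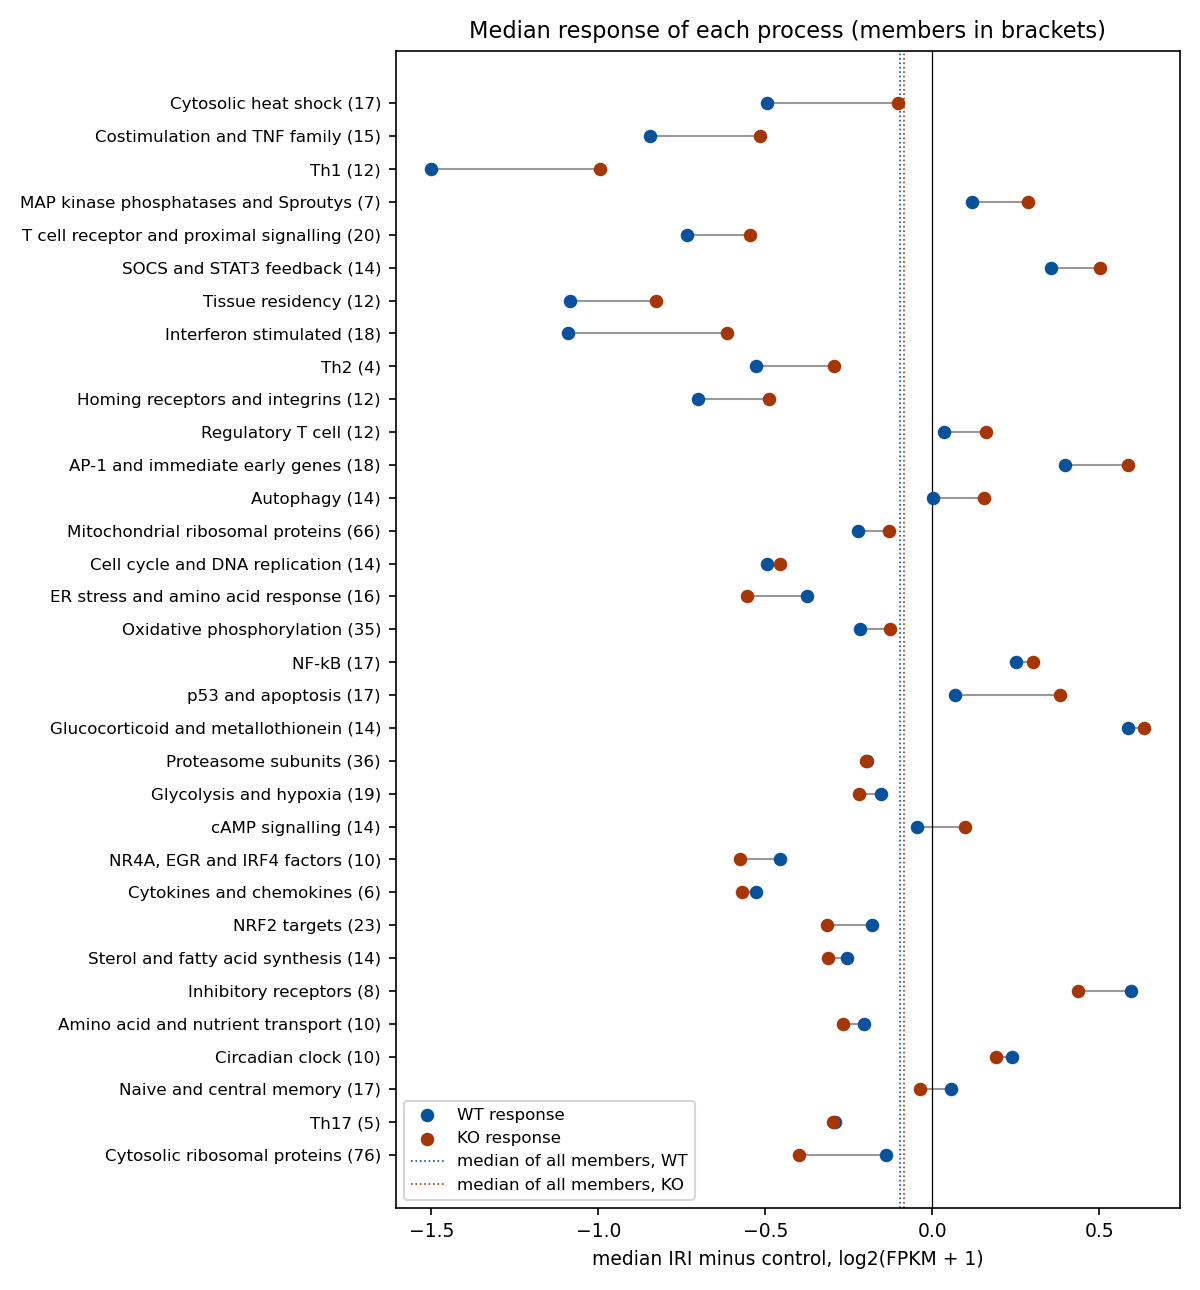
Median WT and KO responses (IRI minus control, log2(FPKM + 1)) of each process list with at least 4 measured members, ordered by the median interaction, with the number of members in brackets. Dotted lines give the medians of all 7919 genes; heat shock, costimulation and Th1 lie at the top, where the KO median is less negative than the WT one, and cytosolic ribosomal proteins lie at the bottom.

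Of the genes of cytokine feedback, Socs3 rose in both genotypes. Socs3, the STAT3-induced inhibitor of IL-6 family signalling, was at 23.2, 20.3 and 29.7 FPKM in WT controls and 128, 153 and 105 after IRI, with 41.6, 26.0 and 57.3 in KO controls and 252, 230.5 and 286 after IRI. IRI libraries of each genotype were far above their controls, with rises of 2.35 and 2.66 and an interaction of 0.31 ± 0.39, 95% interval -0.55 to 1.17. The genotypes overlapped in controls, and after IRI every KO library was above every WT library. Because Socs3 is a STAT target, the 250 bases before its start site are shown (RefSeq, GRCm38.p6, chr11:117969367-117969616, minus strand, 5′ to 3′), with the STAT palindrome TTCNNNGAA in capitals.
Socs3: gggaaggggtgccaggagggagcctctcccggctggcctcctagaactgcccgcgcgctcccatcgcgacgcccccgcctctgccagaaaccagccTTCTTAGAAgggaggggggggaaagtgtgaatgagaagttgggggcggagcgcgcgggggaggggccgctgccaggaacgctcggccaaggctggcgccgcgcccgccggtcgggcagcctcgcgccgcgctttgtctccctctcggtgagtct
The palindrome reads alike on both strands, and its first base lies 154 bases before the start site. In 300-base promoter windows of the RefSeq table (250 bases before and 50 after the start), 8.3% of 32851 held it, so a match is a description of the letters only. Of the 7919 genes 6362 had a window in that table.

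Bcl3, an atypical NF-kB regulator, rose by 1.46 in WT and 1.80 in KO (interaction 0.34 ± 0.40). The IL-4 receptor chain Il4ra rose by 1.20 and 1.12 (interaction -0.07 ± 0.31). Sbno2, a STAT3-dependent co-repressor, went from 20.5, 23.0 and 21.8 to 85.1, 101 and 73.9 FPKM in WT and from 35.2, 24.9 and 34.6 to 95.5, 115 and 165 in KO, an interaction of -0.0014 ± 0.32, 95% interval -0.71 to 0.70. Of the 14 genes of SOCS and STAT3 feedback 6 rose, 1 fell and 7 did not pass, and their median interaction was 0.29. An interval within 1 log2 unit was found for 4 of the 7 responding genes, against 43.1% of all 1206. Members that did not pass included the IL-2 receptor chain Il2rb, with responses of -0.92 in WT and -0.18 in KO (interaction 0.74 ± 0.35), and the IL-21 receptor Il21r (0.44 ± 0.20). In the opposite direction, the gp130 chain Il6st had an interaction of -0.55 ± 0.29.

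Of the inhibitory receptors, Ctla4 and Tigit rose in both genotypes. Ctla4, the inhibitory receptor that removes CD80 and CD86 from antigen-presenting cells, was at 39.4, 41.1 and 30.5 FPKM in WT controls and 126, 128 and 82.1 after IRI, with 66.9, 64.8 and 64.0 in KO controls and 239, 162 and 142 after IRI. Each IRI group was above its controls without overlap, and the interaction was -0.13 ± 0.34, 95% interval -0.88 to 0.62. Tigit, which shares ligands with Cd226, rose by 1.45 in WT and 1.23 in KO (interaction -0.22 ± 0.35), and Btla by 1.49 and 1.12 (-0.38 ± 0.36). Entpd1, the ectonucleotidase CD39, fell by 1.36 and 1.143 (0.22 ± 0.32). Vsir, which encodes the checkpoint protein VISTA, fell by 0.97 and 0.48 (0.49 ± 0.35). For Vsir the call was lost when any 1 of 8 of the 12 libraries was left out, with adjusted limma p up to 0.0752. Of 8 inhibitory receptors 4 rose, 3 fell and 1 did not pass, and 5 of the 7 that responded had an interval within 1 log2 unit, against 43.1% of all 1206.

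Of 12 regulatory T cell genes 5 rose, 4 fell and 3 did not pass. Ikzf4, which encodes the FOXP3 partner Eos, was at 1.57, 1.69 and 1.36 FPKM in WT controls and 5.78, 5.98 and 7.37 after IRI, with 2.16, 2.06 and 3.60 in KO controls and 9.28, 10.4 and 14.6 after IRI, with an interaction of 0.25 ± 0.31. Tnfrsf4, the costimulatory receptor OX40, was at 18.8, 27.8 and 22.6 FPKM in WT controls and 29.9, 33.2 and 33.5 after IRI, with 44.0, 39.1 and 48.5 in KO controls and 102, 80.5 and 68.7 after IRI. Each KO IRI library was above every other library, and the interaction was 0.42 ± 0.27. Izumo1r, the folate receptor 4 of regulatory T cells, fell with an interaction of 0.53 ± 0.46, and the call was lost when any 1 of 4 of the 12 libraries was left out, with adjusted limma p up to 0.0554.

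The largest rises among genes with the interval within 1 log2 unit were those of Acer2, Nfil3, Sbno2, Ikzf4, Gpr146, Zfp281, Elovl6 and Maff. Nfil3, a basic leucine zipper repressor, was at 3.89, 2.14 and 1.92 FPKM in WT controls and 16.4, 17.1 and 10.4 after IRI, with 3.99, 4.18 and 3.76 in KO controls and 18.8, 17.1 and 15.8 after IRI (interaction -0.24 ± 0.33, 95% interval -0.97 to 0.50). The groups of each genotype were separated by IRI and overlapped between genotypes. Acer2, a Golgi ceramidase, was at 3.03, 2.71 and 2.34 FPKM in WT controls and 16.3, 15.5 and 11.2 after IRI, with 1.68, 2.81 and 1.99 in KO controls and 12.9, 14.8 and 9.89 after IRI (interaction 0.06 ± 0.30). Zfp281, a zinc finger factor, rose by 1.75 and 1.496, Elovl6, a fatty acid elongase, by 1.64 and 1.49, and the orphan receptor Gpr146 by 1.78 and 1.53 in WT and KO. Their interactions were -0.25 ± 0.26, -0.15 ± 0.31 and -0.24 ± 0.29. Of the 18 AP-1 and immediate early genes 4 rose and 14 did not pass, with Maff, a small MAF protein, at an interaction of -0.31 ± 0.31, the AP-1 member Fosl2 at -0.05 ± 0.32 and the mRNA decay factor Zfp36 at 0.29 ± 0.36.

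Of 17 NF-kB genes 4 rose, 2 fell and 11 did not pass. Nfkbiz and the NF-kB inhibitor gene Nfkbia rose, and their interactions were -0.01 ± 0.22, 95% interval -0.49 to 0.48 and 0.37 ± 0.29. Birc3, an inhibitor of apoptosis, rose by 1.49 in WT and 1.04 in KO (-0.45 ± 0.32). Icam1, an adhesion molecule and NF-kB target, did not pass on average and stood at 14.7, 13.6 and 16.6 FPKM in WT controls and 16.5, 12.3 and 14.4 after IRI, with 19.6, 11.2 and 14.7 in KO controls and 25.1, 30.1 and 27.6 after IRI. Every KO IRI library was above every other library for Icam1, and its interaction was 0.91 ± 0.29, 95% interval 0.27 to 1.54.

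The largest falls among genes with the interval within 1 log2 unit were those of Mmp9, Itga1, Rcbtb2, St3gal6, Lpar6, Cpne7 and Fam111a, besides Oas3. Mmp9, a gelatinase that reached 5 FPKM only through WT control, was at 11.2, 15.98 and 18.4 FPKM in WT controls and 2.97, 2.42 and 2.41 after IRI, with 11.8, 10.2 and 10.1 in KO controls and 2.50, 1.20 and 0.841 after IRI, and its interaction was -0.12 ± 0.36, 95% interval -0.91 to 0.66. Itga1, the collagen-binding integrin chain of resident T cells, was at 16.6, 22.0 and 16.01 FPKM in WT controls and 4.44, 3.57 and 4.52 after IRI, with 15.9, 9.78 and 9.29 in KO controls and 2.45, 2.24 and 3.16 after IRI (0.11 ± 0.31). St3gal6, a sialyltransferase, fell by 1.76 in WT and 1.76 in KO (0.01 ± 0.32). For Rcbtb2, Lpar6, Cpne7 and Fam111a the interactions ran from -0.07 to 0.26.

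Of 16 genes of ER stress and the amino acid response 7 fell and 9 did not pass, and 13 interactions were above 0. That count was 8 to 13 over the 24 settings tried. The list's median interaction was 0.10, and 0.014 without KO control 2. Pdia4, a disulfide isomerase of the endoplasmic reticulum, was at 35.5, 32.3 and 28.6 FPKM in WT controls and 15.01, 11.8 and 14.4 after IRI, with 62.7, 45.7 and 65.9 in KO controls and 28.2, 21.7 and 25.9 after IRI, with falls of 1.17 and 1.16 and an interaction of 0.01 ± 0.27, 95% interval -0.58 to 0.60. KO libraries were higher in both conditions and did not overlap WT ones of the same condition. Pdia3 and Sdf2l1, further folding factors, had interactions of 0.12 ± 0.22 and -0.34 ± 0.29. Of the 7 that fell, 6 had an interval within 1 log2 unit, against 41.4% of all falling genes.

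**Figure D4:**
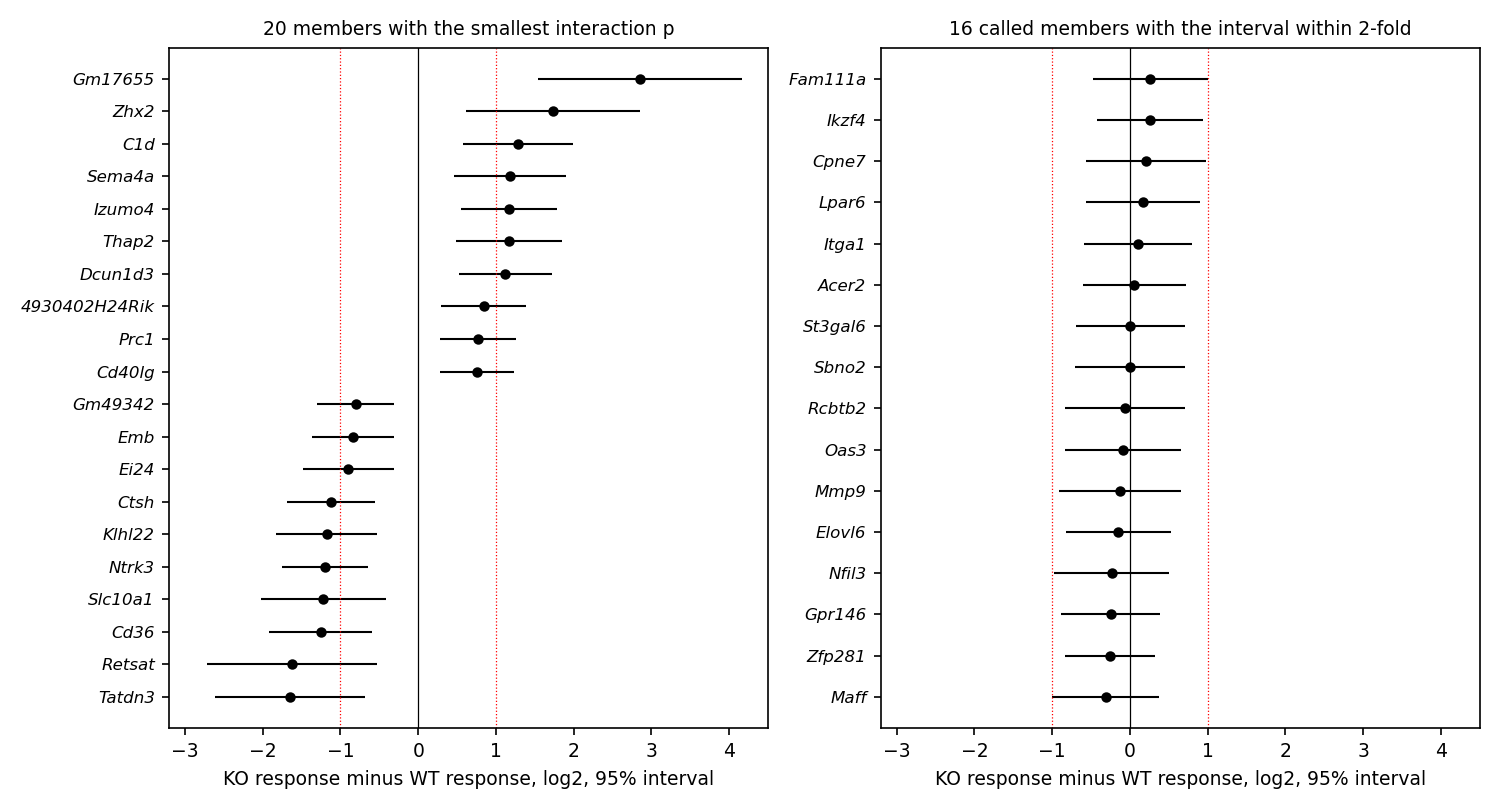
Interaction (KO response minus WT response, log2) with its 95% interval for the 20 genes of smallest unadjusted p on the left and for 16 responding genes with the interval within 1 log2 unit on the right. Dotted lines mark 2-fold; on the left no gene passed after adjustment, and on the right the values lie between -0.31 (Maff) and 0.26 (Fam111a).

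In controls 1 of the 23 NRF2 targets measured was called higher in KO (Prdx1), and after IRI 2 were (Prdx1 and Cat), where 0.0259% and 0.0518% of all genes tested were called higher. The adjusted limma p was 0.0481 for Prdx1 in controls, 0.0416 for Prdx1 after IRI and 0.0309 for Cat. These calls were lost when any 1 of 10, 10 and 7 of the 12 libraries was left out, in this order. The 23 had a median KO-minus-WT difference of 1.01 in controls and 0.77 after IRI (0.67 and 0.50 rescaled), against 0.43 and 0.45 for all 7919 genes (0.11 and 0.17 rescaled). Prdx1, a peroxiredoxin that removes peroxides, was at 33.6, 36.3 and 36.9 FPKM in WT controls and 31.97, 27.7 and 23.7 after IRI, with 120.4, 78.8 and 102 in KO controls and 71.1, 64.4 and 81.4 after IRI. Every KO library was above every WT library, IRI gave no response that passed, and the interaction was -0.10 ± 0.27, 95% interval -0.70 to 0.50. The 250 bases before its start site (RefSeq, GRCm38.p6, chr4:116685349-116685598, plus strand, 5′ to 3′) are shown for the antioxidant response element core TGACNNNGC, the motif that NRF2 binds, in capitals as read on this strand.
Prdx1: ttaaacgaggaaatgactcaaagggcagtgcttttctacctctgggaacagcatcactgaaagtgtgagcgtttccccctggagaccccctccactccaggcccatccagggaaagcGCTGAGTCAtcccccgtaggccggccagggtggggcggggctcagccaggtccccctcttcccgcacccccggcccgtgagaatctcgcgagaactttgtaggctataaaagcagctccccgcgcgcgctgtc
The match is to the reverse strand, and its first base lies 133 bases before the start site. Searched on both strands, the core was in 12.4% of the 32851 windows.

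Txnrd1, the thioredoxin reductase, was at 29.0, 30.3 and 34.9 FPKM in WT controls and 28.3, 26.6 and 18.4 after IRI, with 128, 68.1 and 93.3 in KO controls and 84.4, 68.1 and 75.2 after IRI, again separated by genotype and with an interaction of 0.07 ± 0.34. Hmox1, the heme oxygenase, rose in both genotypes at 3.10, 2.09 and 3.14 FPKM in WT controls and 17.9, 17.5 and 7.71 after IRI, with 4.44, 3.83 and 4.57 in KO controls and 25.8, 22.2 and 14.4 after IRI. The rises were 1.96 and 2.01, the interaction was 0.05 ± 0.44, 95% interval -0.91 to 1.02, and IRI libraries overlapped between genotypes. Slc48a1, a heme transporter, rose by 1.24 in WT and 0.94 in KO (-0.30 ± 0.32), and Cat, which encodes catalase, fell by 0.88 and 0.73 (0.15 ± 0.27). Gclc, the catalytic chain of glutathione synthesis, went from 6.497, 6.21 and 9.13 to 17.9, 17.9 and 7.98 FPKM in WT and from 24.9, 17.7 and 23.8 to 24.9, 26.6 and 36.6 in KO, without passing on average (interaction -0.46 ± 0.42).

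Of the NRF2 targets, 3 had interactions below 0 with the smallest p of the list. The glutathione conjugate exporter Abcc1 was at 13.4, 13.2 and 9.31 FPKM in WT controls and 15.7, 22.2 and 19.1 after IRI, with 52.6, 26.4 and 35.3 in KO controls and 35.5, 29.3 and 30.9 after IRI, with an interaction of -0.83 ± 0.35, 95% interval -1.61 to -0.04. G6pdx, which supplies NADPH, and Ftl1, the ferritin light chain, had -0.51 ± 0.30 and -0.56 ± 0.34. Nfe2l2 itself had -0.04 ± 0.42. Of the 23 targets 4 rose, 4 fell and 15 did not pass, 10 interactions were above 0 and 13 below, and their median was -0.02 as deposited and 0.02 rescaled.

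Markers of antigen-presenting cells, which cells other than the sorted ones carry, fell further in KO by value. H2-Ab1, a class II chain that presents antigen, was at 167, 120.3 and 95.3 FPKM in WT controls and 61.0, 66.0 and 36.3 after IRI, with 501, 194 and 209 in KO controls and 60.1, 47.2 and 80.2 after IRI. As deposited, KO controls were all above WT controls and IRI libraries overlapped, with an interaction of -0.92 ± 0.55, 95% interval -2.14 to 0.30. Divided by the median-ratio factors, KO control 3 lay below WT control 1. H2-Aa and H2-Eb1 had -0.66 ± 0.53 and -0.61 ± 0.53. All 4 dendritic cell and class II markers of at least 5 FPKM fell, all with the larger size in KO. The summed FPKM of all 13 markers of the list was 422 to 735 in WT control, 173 to 328 in WT IRI, 937 to 1864 in KO control and 318 to 490.3 in KO IRI. Without KO control 1 the list's median interaction was -0.29 in place of -0.64.

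The joining chain of secreted antibodies, Jchain, was at 0.0318, 0.819 and 1.29 FPKM in WT controls and 0.446, 0.0191 and 2.67 after IRI, with 166, 23.7 and 34.5 in KO controls and 1.37, 18.2 and 0.229 after IRI. Jchain and Cd79a, a B cell receptor chain, are the only B and plasma cell markers among the protein-coding genes described. Both averaged 5 FPKM only through KO control, so their interactions are not read as a difference. The markers Igkc and Ighm were above 5 FPKM in every library but are not in that set. Ighm was at 102, 80.8 and 79.4 FPKM in WT controls. The 12 B and plasma cell markers summed to 135 to 246 FPKM in WT control, 46.4 to 69.1 in WT IRI, 350.5 to 1748 in KO control and 65.1 to 181 in KO IRI. The upper KO control value came from KO control 1. Of 9 macrophage and monocyte markers 1 rose, 2 fell and 6 did not pass, and 8 interactions were below 0, among them the complement genes C1qb at -0.96 ± 0.49 and C1qa at -0.73 ± 0.43. For C1qa, which fell, the call was lost when any 1 of 9 of the 12 libraries was left out, with adjusted limma p up to 0.0891. Their 13 markers summed to 134 to 208 FPKM in WT control, 112 to 156 in WT IRI, 189 to 392 in KO control and 102 to 229 in KO IRI. The exception was Ly6c2, which T cells also carry, at 25.2, 32.9 and 60.5 FPKM in WT controls and 1.57, 1.92 and 2.61 after IRI, with 27.4, 17.6 and 24.8 in KO controls and 3.80, 2.29 and 2.36 after IRI (0.99 ± 0.44). No marker of these 3 lists was at 0 in all libraries. The part of such cells in the falls of either genotype was not tested.

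**Figure D5:**
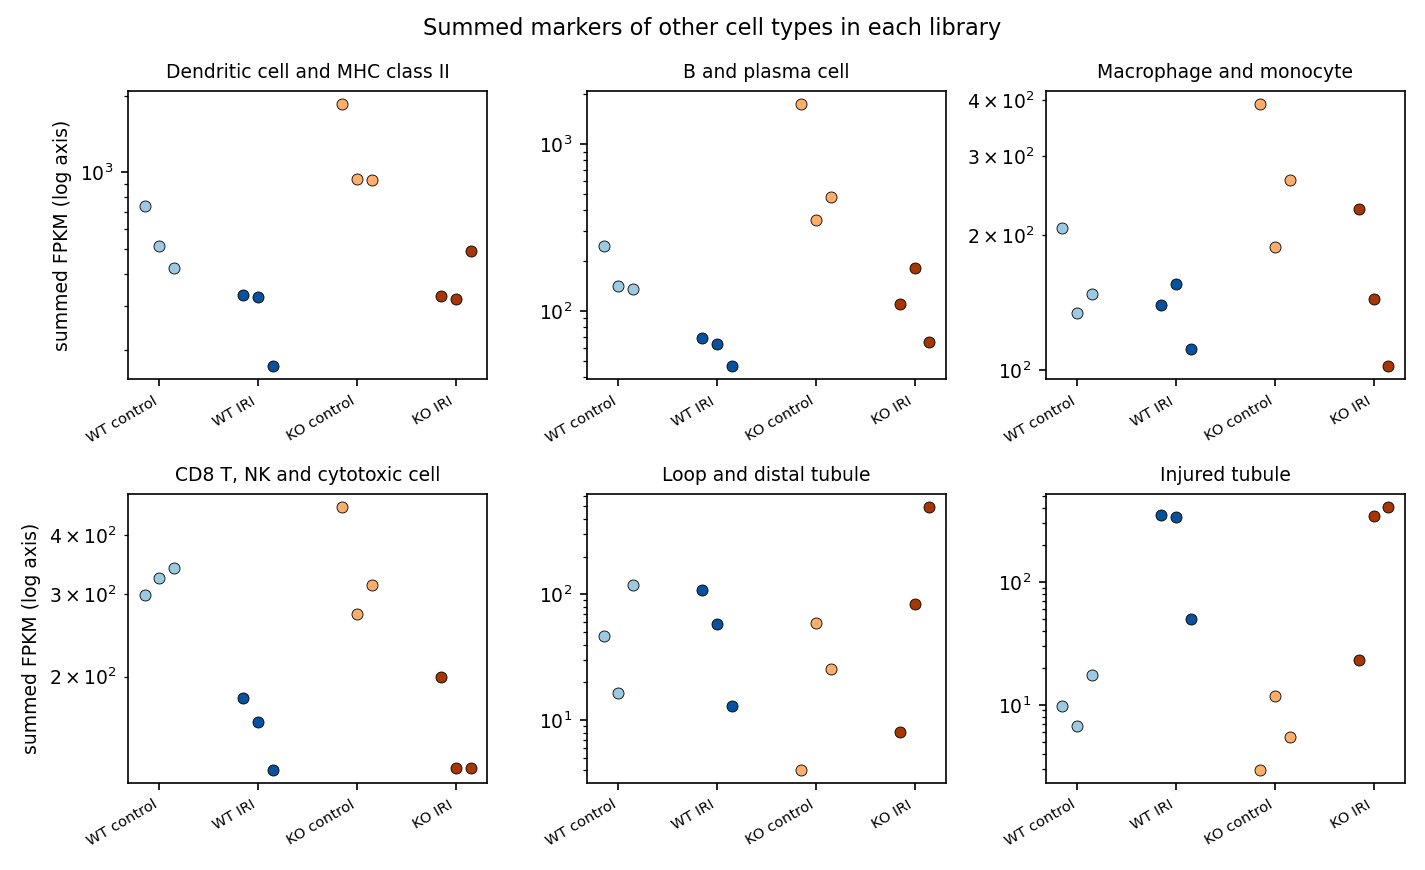
Summed FPKM of marker genes of 6 other cell types in each of the 12 libraries, on log axes. Class II and B cell markers are highest in KO control, and loop and distal tubule markers run from 8.11 to 494 within KO IRI.

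Cytotoxic markers split: of 11 measured, 4 fell and 7 did not pass, with interactions of 0.61 ± 0.25 for the cystatin gene Cst7, 0.44 ± 0.40 for the granule gene Nkg7 and 0.71 ± 0.48 for the cathepsin gene Ctsw, against -1.46 ± 0.89 for the NK receptor Klrd1 and -0.97 ± 0.62 for its adaptor Tyrobp. The 19 markers summed to 298 to 339.9 FPKM in WT control, 127 to 179.9 in WT IRI, 272 to 459 in KO control and 128 to 199 in KO IRI.

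Tubule transcripts had wide errors. Spp1, an injury-induced tubule and immune gene, was at 3.03, 0.141 and 7.48 FPKM in WT controls and 242, 239 and 35.6 after IRI, with 0.495, 1.79 and 1.23 in KO controls and 7.85, 272 and 307 after IRI, with an interaction of 0.18 ± 1.83, 95% interval -3.87 to 4.23. Lcn2, the tubular injury marker NGAL, had one of 0.10 ± 1.35, and Umod, which encodes uromodulin of the thick ascending limb, 1.55 ± 2.08. Of 9 markers of loop and distal tubule 5 averaged 5 FPKM or more, and 2 of those only through KO IRI, so the signs of their interactions are not counted. The summed FPKM of the 9 in KO IRI ran from 8.11 (KO IRI 1) to 494 (KO IRI 3).

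Cytosolic ribosomal proteins had the lowest median interaction of the process lists, -0.24, with 69 of 76 below 0. Their median response was -0.14 in WT and -0.40 in KO, and 1 gene fell while 75 did not pass. Rpl27a was at 146, 172 and 202 FPKM in WT controls and 204, 135 and 245 after IRI, with 379.7, 202 and 329 in KO controls and 187, 230.1 and 159 after IRI, with each group overlapping at least 1 other, and an interaction of -0.76 ± 0.42. Rps23 had -0.70 ± 0.43 and Rpl10, the gene that fell, -0.28 ± 0.34. For Rpl10 the call was lost when any 1 of 9 of the 12 libraries was left out, with adjusted limma p up to 0.0799. The median was -0.54 without KO control 2 and -0.10 without KO control 1. Short ribosomal protein genes have many near-identical pseudogenes, so their FPKM are uncertain.

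Of the 168 genes with an unadjusted interaction p under 0.05, 124 had the smaller size in KO. Of the same genes, 107 had WT and KO responses of opposite sign, which a choice by this p favours. Among all 7919 genes, 4768 had the smaller size in KO and 1798 had responses of opposite sign. None of the 168 genes passed the adjusted test. Ntrk3, a neurotrophin receptor, had the smallest p below 0, at 6.31, 6.06 and 5.58 FPKM in WT controls and 8.20, 6.97 and 5.99 after IRI, with 9.42, 7.52 and 11.3 in KO controls and 4.22, 4.42 and 3.79 after IRI. Its KO IRI libraries were all below KO control and below all WT libraries (interaction -1.20 ± 0.25, 95% interval -1.75 to -0.65). Ctsh, a lysosomal cathepsin, went from 13.4, 8.84 and 10.6 to 15.2, 15.1 and 13.5 FPKM in WT and from 21.3, 16.5 and 15.7 to 10.7, 9.43 and 10.9 in KO (-1.12 ± 0.25). The fatty acid and lipoprotein scavenger receptor Cd36 showed the same order, with 5.08, 3.83 and 3.24 to 6.06, 5.79 and 5.69 in WT and 7.40, 6.001 and 9.71 to 3.31, 3.58 and 5.04 in KO (-1.26 ± 0.30). Cd36 reached 5 FPKM only through KO control. Macrophages also express both genes, and their markers had the highest sum in KO control 1. The part of these cells was not tested.

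Emb, which encodes embigin, a chaperone of monocarboxylate transporters, rose in both genotypes at 75.7, 75.6 and 70.2 FPKM in WT controls and 273, 251 and 208 after IRI, with 187, 151 and 162 in KO controls and 291, 289 and 329 after IRI. As deposited, KO controls were above all WT controls, and KO IRI above all WT IRI. The rise was 1.70 in WT and 0.86 in KO (interaction -0.84 ± 0.24, 95% interval -1.37 to -0.31). Divided by the median-ratio factors, KO IRI 1 lay below every WT IRI library, and KO controls stayed above all WT controls. Klhl22, an adaptor of a CUL3 ubiquitin ligase, had -1.18 ± 0.29 with KO controls already at 12.7, 9.24 and 9.64 FPKM against 3.66, 5.20 and 2.97 in WT control.

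Above 0, Gm17655, a predicted gene, had the smallest p, at 8.47, 12.3 and 10.5 FPKM in WT controls and 3.40, 0.783 and 0.88 after IRI, with 2.45, 5.74 and 4.79 in KO controls and 9.14, 9.65 and 3.79 after IRI (2.86 ± 0.59, 95% interval 1.55 to 4.17). Gm17655 reached 5 FPKM only through WT control, so its interaction is in part set by that choice and is not read as a difference. Izumo4 stood at 13.2, 16.3 and 16.7 FPKM in WT controls and 6.78, 6.14 and 6.95 after IRI, with 14.7, 10.1 and 16.8 in KO controls and 16.5, 12.1 and 14.6 after IRI, with WT IRI below every other library (1.17 ± 0.28, 95% interval 0.54 to 1.79). Izumo4 fell on average, but the call was lost when any 1 of 10 of the 12 libraries was left out, with adjusted limma p up to 0.112. Dcun1d3, which acts in cullin neddylation, showed that order too, at 7.21, 8.91 and 7.96 FPKM in WT controls and 3.87, 2.73 and 3.58 after IRI, with 9.63, 6.99 and 9.31 in KO controls and 10.9, 7.50 and 9.12 after IRI (1.12 ± 0.27). Zhx2, a zinc finger homeobox factor, was at 53.6, 69.3 and 81.7 FPKM in WT controls and 35.0, 35.5 and 27.7 after IRI, with 39.1, 71.9 and 127 in KO controls and 142, 115 and 97.7 after IRI (1.73 ± 0.51, 95% interval 0.61 to 2.86). Its KO controls spread over a range that covered all WT controls. C1d, a cofactor of the RNA exosome, had 1.28 ± 0.32.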

How the data were processed

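RNA of flow-sorted kidney CD4 T cells was measured in 12 libraries, 3 in each of 4 groups taken from the titles. The authors deposited 1 table of FPKM values for 52632 genes, per the file headers. Per the submitters' processing notes, GRCm38, Partek 7.0, Cufflinks 2.2.1, TopHat2 2.1.0 and bcl2fastq 2.17.1.14 were used. Their roles, the annotation, the strand setting and the scaling are not given in the sources used here. Depth is unknown, since FPKM hold no counts. GENCODE release M21 gave gene types and coordinates for 52485 IDs.

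The 19288 genes that averaged 1 FPKM or more were fitted with limma 3.58.1 in R 4.3.3 on log2(FPKM + 1), a scale that understates changes of low genes. The fit had 1 mean per group, a variance trend and 8 residual degrees of freedom. It was also run on simulated data, the outcome of which is not reported here. Contrasts were the interaction, the response averaged over genotype (the mean response), the response in each genotype, and KO against WT in each condition. P-values were adjusted by Benjamini-Hochberg over all 19288 genes, with a threshold of 0.05, and errors are SE.

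The genes, 33 process lists and 12 marker lists were chosen with earlier results of these data known. Named genes were the 10 of smallest interaction p in each direction, the 8 largest rises and 8 largest falls among responding genes with the interaction interval within 1 log2 unit (predicted genes left out), up to 3 per list by interaction p and 3 by mean response p, and Keap1, Nfe2l2, Nqo1, Txnrd1, Prdx1, Gclc, Hmox1 and Cd4. Lists are given by counts and medians, and some genes within this rule are not reported here.

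Alternatives were median-ratio rescaling, quantile normalization, a common sum over protein-coding genes, pseudocounts of 0.1 and 5, no filter, only the 7919 described genes in the fit, no variance trend, a replicate block and leaving out each library.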

Additional observations from a re-analysis of the deposited data

Results flagged for a closer look

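Outside the protein-coding set, the small nucleolar RNA gene Gm25744 (chr17:34952013-34952075, minus strand, GRCm38) was the only gene of 19288 tested that passed the interaction threshold. It reached the mean of 1 FPKM needed for testing only through KO control, so its difference is in part set by that choice. It was at 744, 109 and 195 FPKM in KO controls and listed at 0 in every other library except WT IRI 1, at 2.26e-05 FPKM. The interaction was -7.98 ± 0.74 (SE, 3 libraries a group) on the log2(FPKM + 1) scale, with an adjusted limma p of 0.00844. The SE pools the spread of 4 groups, and the groups listed at 0 or near it have almost none, whereas KO control had an SD of 344 FPKM. The SE and p thus understate the spread within KO control, and the call is not read as a difference in response. The value rests on the 3 KO controls, all above every other library, and since the gene is listed at 0 in WT controls, a fall in WT could not have been seen. A 0 may stand for an estimate that failed, which was not tested.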

How the results depend on the processing

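As deposited, 0, 1206, 542, 117, 520 and 289 genes were, in this order, called in the interaction, the mean, the WT and the KO response, had the interval within 1 log2 unit, and were larger in KO among those called in the mean response. The same counts were 0, 1904, 1151, 315, 1247 and 491 with median-ratio rescaling, and 0, 1902, 1292, 257, 1166 and 388 with quantile normalization. They were 0, 1705, 834, 253, 951 and 480 with a common sum over protein-coding genes, and 0, 1809, 1093, 479, 817 and 466 with only the 7919 genes in the fit. They were 0, 753, 304, 57, 324 and 157 with no filter on low values, and 0, 1061, 411, 71, 406 and 250 with no variance trend. The pseudocount gave 0, 1210, 567, 127, 418 and 267 at 0.1, and 0, 1128, 457, 111, 818 and 329 at 5. Leaving out each library in turn gave 0 to 2, 735 to 1685, 202 to 696, 28 to 481, 231 to 920 and 144 to 752. Among settings chosen after seeing the data, leaving out KO control 1, WT control 3 and WT IRI 3 together gave 2, 716, 148, 25, 246 and 125, and rescaling without KO control 1 gave 2, 1393, 1028, 93, 801 and 303. The share of rising genes among those called in the mean response was 52.0% without those 3 libraries, 42.4% without WT IRI 3, 44.8% with quantile normalization and 24.0% with a common sum. The 3 settings that left out KO control 1 gave 2 interaction calls each, and no other setting gave one.

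The groups share replicate numbers, but same-numbered libraries did not deviate together: correlations of their deviations from the group means were -0.21 to 0.17 over 18 pairs, against -0.19 to 0.21 over 36 pairs of different number, and 6 of 12 libraries correlated best with their own number. With a replicate block the counts were 0, 1087, 423, 99, 443 and 258.

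The 86 named genes called in the mean response kept their direction in every setting. Leaving out each library in turn, all but 8 stayed past the threshold. C1qa, Hspd1, Ifit1, Izumo1r, Izumo4, Rpl10, Slc29a1 and Vsir lost the call without at least 4 of the 12 libraries. Interactions near 0 turned sign in some settings. With median-ratio rescaling these were Lcn2 -0.12, Nfkbiz 0.030 and Sbno2 0.030. With quantile normalization these were Acer2 -0.26, Hmox1 -0.15, Lcn2 -0.24, Mmp9 0.17, Mt1 -0.14, Oas3 0.21, Rapgef3 -0.17, Spp1 -0.36 and Xaf1 0.065. With a common sum over protein-coding genes these were Acer2 -0.041, Hmox1 -0.035, Lcn2 -0.053, Mt1 -0.077, Pdia4 -0.053, St3gal6 -0.047 and Txnrd1 -0.0022. With a pseudocount of 0.1 these were Hmox1 -0.043 and Mt1 -0.044. With a pseudocount of 5 these were Acer2 -0.034, Elovl6 0.077, Lcn2 -0.39, Mmp9 0.12, Nfkbiz 0.0063, Pdia4 -0.064, Sbno2 0.044 and St3gal6 -0.021. Without those 3 libraries these were Acer2 -0.14, Fosl2 0.15, Hmox1 -0.36, Keap1 -0.026, Lcn2 -1.65, Mt1 -0.49, Nfkbiz 0.055, Rapgef3 -0.13, Spp1 -1.64 and Umod -1.28. With rescaling and without KO control 1 these were Acer2 -0.16, Fosl2 0.047, Hmox1 -0.0057, Lcn2 -0.28, Nfe2l2 0.039, Nfkbiz 0.044, Rapgef3 -0.12, Sbno2 0.027, Spp1 -0.20 and Xaf1 0.020. Leaving out 1 library in turn, those that turned sign spanned, for Acer2 -0.10 to 0.21, Cd4 -0.015 to 0.51, Ctla4 -0.35 to 0.021, Elovl6 -0.29 to 0.027, Fosl2 -0.23 to 0.11, Hmox1 -0.31 to 0.28, Hspd1 -0.12 to 0.35, Il4ra -0.27 to 0.10, Itga1 -0.031 to 0.33, Lcn2 -1.24 to 0.78, Mmp9 -0.39 to 0.074, Mt1 -0.76 to 0.61, Nfe2l2 -0.31 to 0.15, Nfkbiz -0.099 to 0.096, Oas3 -0.36 to 0.086, Pdia4 -0.15 to 0.11, Prdx1 -0.26 to 0.040, Psmb10 -0.14 to 0.36, Psmb9 -0.16 to 0.22, Rapgef3 -0.043 to 0.67, Sbno2 -0.22 to 0.17, Spp1 -0.73 to 1.86, St3gal6 -0.20 to 0.17, Tigit -0.39 to 0.042, Txnrd1 -0.16 to 0.29 and Xaf1 -0.27 to 0.055. The causes of these changes were not tested.

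FPKM hold no counts, so depth and counting error are unknown, and a 0 in the table may stand for an estimate that failed. The 95% interval of the interaction was within 1 log2 unit for 520 of the 1206 responding genes; for the rest a 2-fold difference between genotypes was not resolved at 3 libraries a group.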

Other observations

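Among the falling genes of the 1206 that responded, the share with the smaller size in KO was 75.7% of 296 genes with mean falls under 0.75 log2 units, 75.5% of 273 from 0.75 to 1, 82.3% of 215 from 1 to 1.5 and 86.1% of 72 from 1.5 up. Among rising genes the shares over the same sizes were 71.5%, 69.9%, 72.8% and 67.3%, with no such order. By level it was 69.1% of 304 responding genes with a mean of 5 to 10 FPKM, 74.2% of 496 with 10 to 30, 84.4% of 314 with 30 to 100 and 80.4% of 92 above. These are counts over genes of the same libraries and carry no test.

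The lists that follow are to be read against the shares of all 7919 genes that rose (4.42%) and fell (10.8%) in the mean response. Hif1a, the hypoxia factor, was at 38.5, 51.5 and 47.8 FPKM in WT controls and 130.0, 126 and 99.3 after IRI, with 58.2, 48.9 and 61.8 in KO controls and 163, 196 and 268 after IRI, with rises of 1.35 in WT and 1.85 in KO (interaction 0.50 ± 0.31). Of 19 genes of glycolysis and hypoxia 3 rose and 5 fell, and the glycolytic enzyme gene Tpi1 had an interaction of 1.16 ± 0.43 without an average response that passed. Of 35 genes of oxidative phosphorylation 1 fell, with 23 interactions above 0 and a median interaction of 0.09, which was -0.08 without KO control 2. Of 36 proteasome subunits 4 fell, among them the immunoproteasome genes Psmb8 (0.45 ± 0.30), Psmb9 (0.07 ± 0.33) and Psmb10 (0.19 ± 0.39). Of 66 mitochondrial ribosomal proteins 1 rose and 5 fell, all 6 with the smaller size in KO, for example Mrps15 (0.29 ± 0.25). Of 10 amino acid and nutrient transporters 2 rose and 2 fell, 3 of them with the larger size in KO, for example the nucleoside transporter Slc29a1 (-0.61 ± 0.24), for which the call was lost when any 1 of 7 of the 12 libraries was left out, with adjusted limma p up to 0.0705. Of 14 sterol and fatty acid synthesis genes 3 fell, with a median interaction of -0.03.

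Of 14 glucocorticoid and metallothionein genes 6 rose, 4 of them with the larger size in KO, and Mt1, a metallothionein, had 0.0043 ± 0.98. Of 17 genes of p53 and apoptosis 4 rose and 2 fell, with the cell cycle inhibitor Cdkn1a at -0.41 ± 0.46. Of 14 cAMP genes 5 rose and 2 fell, with the adrenomedullin receptor subunit Ramp3 at -0.68 ± 0.38 and the cAMP-activated exchange factor Rapgef3 at 0.33 ± 0.55. Of 14 cell cycle genes 6 fell, and of 17 naive and central memory genes 2 rose and 1 fell, with median interactions of 0.14 and -0.12. Of 10 clock genes 2 rose, and Bhlhe40, a clock and T cell factor that did not pass on average, had 0.93 ± 0.38. Of 14 autophagy genes 2 rose, of 10 NR4A, EGR and IRF4 factors 3 fell, of 7 MAP kinase phosphatases and Sproutys 1 rose and 2 fell, of 6 cytokines and chemokines 1 rose and 1 fell, of 4 Th2 genes 2 fell, and none of 5 Th17 genes passed (limma, mean response).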
